A study of Rattus norvegicus with 24 samples.

Results

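The 10 genes described here are markers of macrophages and related myeloid cells (Csf1r, Cd68, Cd163, Mrc1, Cd14, Lyz2 and Itgam) and the genes of the 3 chains of complement C1q (C1qa, C1qb and C1qc). They were chosen by gene symbol from the 15273 genes of the transcript table, and the 14 transcripts carrying these symbols were added up per gene. RNA came from the tibialis anterior, a muscle at the front of the lower hindlimb, of 12 adult male Wistar rats, 3 each after 2, 10, 20 or 30 days of daily training. The left muscle was trained by electrical stimulation of its nerve from an implanted pulse generator, in a pattern that also recruits the opposing calf muscles as the load (SpillOver training). The right muscle of the same rat was the unstimulated contralateral control, so each group held 3 muscles and there were 24 libraries. In all rats the generator lay in the abdominal cavity and its electrodes in the left hindlimb, so training and the presence of electrodes cannot be told apart in these comparisons. Muscles were taken 1 h after the last bout, so the response to that bout and the effect of the days of training cannot be told apart. Whole muscle was sequenced, so a larger number of macrophages and more RNA per macrophage cannot be told apart either.

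Macrophages are phagocytes that live in the connective tissue of muscle and are joined by blood monocytes after injury or loading. Csf1r, the receptor for the growth factor Csf1, keeps these cells alive, and Cd68 is a glycoprotein of their lysosomes. Cd163, the scavenger receptor for haemoglobin bound to haptoglobin, and Mrc1, the mannose receptor, are used as markers of resident-type macrophages. Cd14, the co-receptor for lipopolysaccharide, Lyz2, a lysozyme that cuts bacterial cell walls, and Itgam, the CD11b integrin chain, are more often read as markers of monocytes and of inflammatory macrophages, although resident cells express them too. C1q is the recognition molecule of the classical complement pathway, is made in tissues largely by macrophages, and binds antibody complexes, dying cells and debris.

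The C1q genes lie next to each other on rat chromosome 5 (Rnor_6.0), all on the minus strand, within 17698 bases: C1qb at chr5:155246447-155252004, C1qc at chr5:155255005-155258393 and C1qa at chr5:155261250-155264144. The gaps between them were 3000 bases and 2856 bases, and each chain had 1 protein-coding transcript in the table. Promoters are shown for the outer C1q genes, for Lyz2 and for Cd68. On the log2(value + 1) scale used below, the Lyz2 difference changed most from 2 days among the tested members. The promoters come from RefSeq on GRCr8, a later build than that of the data. They run from 250 bases before to 50 after the gene start and are printed on the gene's strand. Capitals mark GAGGAA or its reverse complement TTCCTC, the core letters of many sites of PU.1, the myeloid transcription factor encoded by Spi1.
C1qb, chr5:154407778-154408077, minus strand: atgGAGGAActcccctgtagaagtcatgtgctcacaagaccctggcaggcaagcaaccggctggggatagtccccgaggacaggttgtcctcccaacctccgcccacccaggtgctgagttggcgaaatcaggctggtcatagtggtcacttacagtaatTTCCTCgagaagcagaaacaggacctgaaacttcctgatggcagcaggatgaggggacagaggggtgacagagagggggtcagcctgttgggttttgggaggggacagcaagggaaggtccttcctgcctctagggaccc
C1qa, chr5:154419884-154420183, minus strand: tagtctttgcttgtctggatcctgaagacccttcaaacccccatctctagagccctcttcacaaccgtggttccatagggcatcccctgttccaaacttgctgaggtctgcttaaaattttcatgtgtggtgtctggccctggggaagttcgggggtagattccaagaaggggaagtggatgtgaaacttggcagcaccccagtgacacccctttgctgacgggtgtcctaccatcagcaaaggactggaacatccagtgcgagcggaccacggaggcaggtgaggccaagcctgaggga
Lyz2, chr7:54797962-54798261, minus strand: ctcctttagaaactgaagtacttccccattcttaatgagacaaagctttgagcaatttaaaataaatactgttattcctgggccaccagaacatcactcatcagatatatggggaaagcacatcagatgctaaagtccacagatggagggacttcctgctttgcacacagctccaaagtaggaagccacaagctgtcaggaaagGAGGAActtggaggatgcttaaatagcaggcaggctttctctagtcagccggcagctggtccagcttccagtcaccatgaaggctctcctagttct
Cd68, chr10:54882392-54882691, minus strand: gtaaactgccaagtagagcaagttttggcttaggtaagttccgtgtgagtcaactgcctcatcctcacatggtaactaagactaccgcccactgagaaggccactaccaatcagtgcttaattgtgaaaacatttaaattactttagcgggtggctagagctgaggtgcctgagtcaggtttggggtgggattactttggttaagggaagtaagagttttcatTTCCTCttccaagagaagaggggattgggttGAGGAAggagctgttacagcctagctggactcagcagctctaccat
The letters occurred 2 times in the C1qb window, at -247 and -90 from the start, 2 times in that of Cd68, at -27 and 5, once in that of Lyz2, at -46, and not in that of C1qa. Of the 9 members with an entry, all but C1qc, 7 held the letters at least once, and C1qa and Cd163 did not. They also occurred in 27.6% of all 33469 promoters of the same length and at least 2 times in 4.83%, so a match is a description of these windows and not evidence of binding.

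Levels are given as the deposited transcripts-per-million-type values, which are scaled for transcript length, after division by 1 factor per library (0.778 to 1.14). The values do not hold the number of reads behind them, so no counting error can be given for a value. Mitochondrial transcripts took 23.4% to 43.9% of the values per library, with the 3 trained muscles of 30 days and contralateral replicate 1 of 30 days in the upper part of that range. Muscle-fibre genes summed to between 55525 and 90303 in every library, so the samples were muscle as labelled, and the 10 members to between 18.7 and 43.3 in contralateral muscles and between 57.3 and 174 in trained ones. Differences between trained and contralateral muscle come from a limma fit on log2(value + 1) with the animal as a block. It was run on the 11196 genes that reached a value of 1 in 3 or more libraries, with Benjamini-Hochberg adjustment over all of them and a threshold of 0.05. On this scale a log2 difference understates the change of genes near 1. All members but Itgam were tested, and each of these 9 also met that minimum on the contralateral muscles alone.

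All 9 members tested were higher in trained than in contralateral muscle at 2, 10, 20 and 30 days. Among all genes tested, the share that was higher was 11.8%, 12.1%, 9.94% and 7.21% at these times in turn, and 3.64% were higher at all 4 times. The median log2 difference of the members was 1.52, 1.10, 1.02 and 1.14 at the 4 times, beside -0.02, -0.03, -0.02 and -0.01 over all genes tested. The trained muscle was above its own contralateral muscle in 12 of 12 animals for every one of the 10 members, Itgam included, which held for 8.45% of the genes tested. In the mean of the 4 times, all 9 tested members rose, against 21.2% of all genes.

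**Figure D1:**
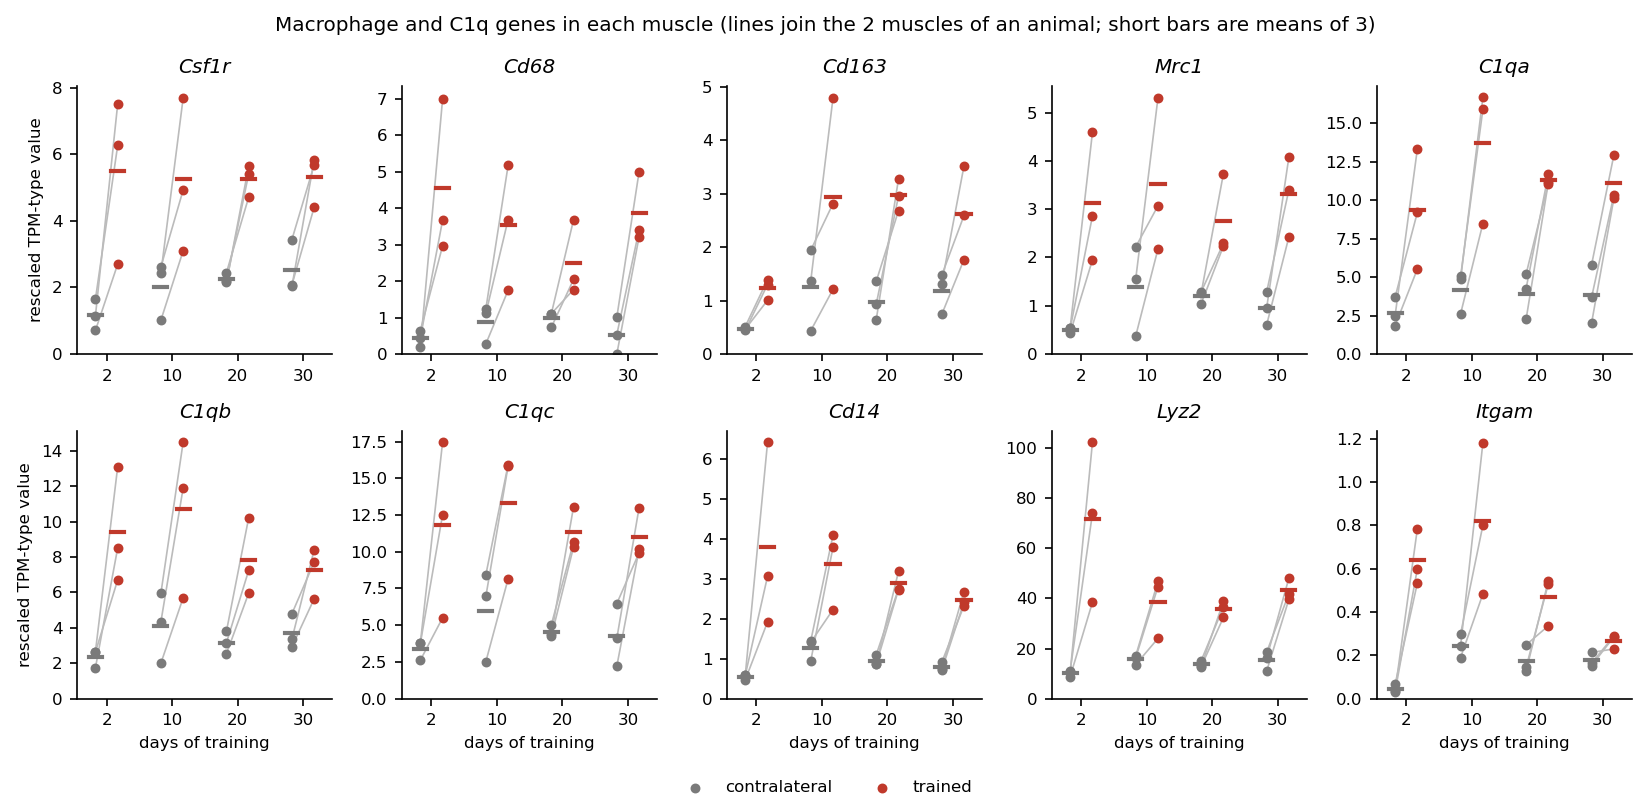
Level of each of the 10 genes (rescaled TPM-type value, linear axis, 1 panel per gene) in every contralateral and trained muscle by days of training, with a line joining the muscles of 1 animal. In every panel the trained muscle of each of the 12 animals lies above its own contralateral muscle, and the highest Lyz2 values, up to 102, are those of trained muscles at 2 days.

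The ranges of the groups were also compared without a model. Every trained muscle lay above every contralateral muscle of the same day for 10 of 10 members at 2 days (17.1% of all genes tested), 6 of 10 at 10 days (16.7%), 10 of 10 at 20 days (16.5%) and 10 of 10 at 30 days (14.1%). The genes whose ranges overlapped at 10 days were Cd163, Mrc1, C1qb and C1qc, each of which was lowest in both muscles of animal 3. Across all times together, the lowest trained muscle lay above the highest contralateral muscle for 3 members, Cd68, Cd14 and Lyz2, against 2.93% of all genes tested.

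In unstimulated muscle the order of levels, on the length-scaled values, was Lyz2, the C1q chains, Csf1r, then Mrc1, Cd163, Cd14 and Cd68, and last Itgam. Lyz2 averaged 13.7 ± 3.01 (SD, n = 12) and was above C1qc in 12 of 12 contralateral muscles. C1qc, C1qa and C1qb, at means of 4.54, 3.65 and 3.32, could not be put in order: C1qc was above C1qa in 9 of 12 muscles and C1qa above C1qb in 7 of 12. Csf1r, at a mean of 1.99, was below C1qb in 11 of 12 muscles and above Mrc1 in 12 of 12. The means of Mrc1 (1.01), Cd163 (0.971), Cd14 (0.888) and Cd68 (0.700) were close, and neighbours in this order were reversed in 5 or 6 of the 12 muscles. Itgam, at 0.160, was below 1 in all 12.

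Csf1r, which all macrophages carry, was higher in trained muscle at each time, and by most at 2 days. At 2 days its level was 0.708, 1.15 and 1.65 in the contralateral muscles of animals 1, 2 and 3 and 2.70, 7.52 and 6.27 in their trained muscles. At 10 days the contralateral values were 2.44, 2.62 and 1.02 and the trained values 7.70, 4.93 and 3.10. At 20 days they were 2.44, 2.18 and 2.15 against 4.71, 5.41 and 5.64, and at 30 days 2.08, 2.03 and 3.44 against 4.41, 5.83 and 5.68. The groups did not overlap at any time, and the trained means stayed between 5.25 and 5.50 while the contralateral mean was lowest at 2 days (1.17 ± 0.470) and highest at 30 days (2.52 ± 0.800). The log2 difference was 1.52, 1.02, 0.94 and 0.86 at the 4 times (SE 0.171, adjusted p 5.26e-05, 0.00103, 0.00229 and 0.00609). Without replicate 2 of 30 days the difference at that time was 0.70 (adjusted p 0.0707).

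Cd68, the lysosomal glycoprotein, showed the largest ratio of group means among the tested members at 2 days, 10.6, from contralateral levels near or below 1. Its contralateral values at 2 days were 0.643, 0.201 and 0.447 and its trained values 2.97, 7.0 and 3.67. At 10 days they were 1.24, 1.11 and 0.276 against 5.17, 3.69 and 1.75, and at 20 days 1.10, 0.731 and 1.11 against 1.77, 2.05 and 3.69. At 30 days Cd68 was listed at 0 in contralateral replicate 1, at 1.01 and 0.533 in the others, and at 3.21, 5.0 and 3.40 in the trained muscles. All trained muscles of the study were thus above all contralateral ones, the highest of which was 1.24. The log2 differences were 1.90, 1.24, 0.79 and 1.73 (SE 0.225, adjusted p 7.62e-05, 0.00178, 0.0287 and 3.28e-04). The call at 20 days was lost without replicate 2 (0.77, adjusted p 0.119) or replicate 3 (0.61, adjusted p 0.173) of that time, and on the values as deposited (0.75, adjusted p 0.0646) or with a pseudocount of 0.1 (1.22, adjusted p 0.152).

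The 3 C1q chains rose together at every time, with mean levels between those of Lyz2 and Csf1r. C1qa was 1.85, 2.50 and 3.70 in contralateral and 5.52, 13.3 and 9.21 in trained muscle at 2 days, and 4.89, 5.04 and 2.61 against 16.7, 15.9 and 8.48 at 10 days. At 20 days it was 4.25, 5.19 and 2.26 against 11.7, 11.1 and 11.2, and at 30 days 2.01, 5.81 and 3.68 against 10.1, 12.9 and 10.3. The groups of C1qa were apart at every time, with trained over contralateral means of 3.49, 3.27, 2.90 and 2.90. The log2 differences of C1qa were 1.45, 1.49, 1.38 and 1.40 (SE 0.207, adjusted p 3.07e-04, 2.72e-04, 6.51e-04 and 8.80e-04).

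C1qb, at the other end of the locus, was 2.63, 2.65 and 1.74 in contralateral and 6.71, 13.1 and 8.51 in trained muscle at 2 days, and 5.96, 4.35 and 2.00 against 14.5, 11.9 and 5.70 at 10 days. At 20 days it was 2.53, 3.14 and 3.80 against 5.96, 7.25 and 10.2, and at 30 days 2.92, 4.79 and 3.36 against 5.64, 7.72 and 8.41. The trained value of animal 3 at 10 days fell within the contralateral range of that time, although it was above that animal's own control. The log2 differences of C1qb were 1.61, 1.20, 1.07 and 0.82 (SE 0.155, adjusted p 1.58e-05, 1.56e-04, 5.06e-04 and 0.00440). The call at 30 days was lost without replicate 3 of that time (0.67, adjusted p 0.0509) and in the authors' gene-level table (0.30, adjusted p 0.179).

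C1qc was 2.61, 3.78 and 3.76 in contralateral and 5.50, 17.5 and 12.5 in trained muscle at 2 days, and 6.96, 8.43 and 2.51 against 15.8, 15.9 and 8.15 at 10 days. At 20 days it was 5.03, 4.37 and 4.23 against 10.7, 13.1 and 10.3, and at 30 days 2.21, 4.11 and 6.48 against 10.2, 13 and 9.93. At 10 days the trained muscle of animal 3 lay below the contralateral muscle of animal 2, the same animal that was low for C1qb. Its log2 differences were 1.44, 1.10, 1.15 and 1.27 (SE 0.226, adjusted p 6.52e-04, 0.00391, 0.00357 and 0.00296), and that at 30 days was 0.70 in the gene-level table (adjusted p 0.0666).

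The C1q protein is built from equal numbers of its chains, and the RNA shares of the chains stayed similar. C1qa, C1qb and C1qc made up 31.7% ± 6.49, 29.4% ± 6.86 and 38.9% ± 6.09 of their summed level in contralateral muscle (SD, n = 12). In trained muscle the shares were 35.6% ± 3.47, 27.5% ± 4.94 and 36.9% ± 3.43, within the spread of the contralateral shares. The summed level ran from 7.09 to 17.8 with a median of 11.1 in contralateral muscles and from 17.7 to 47.0 with a median of 30.8 in trained ones.

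Cd163, the haptoglobin-haemoglobin receptor, had the smallest difference of the tested members in the mean of the 4 times, 0.77 on the log2(value + 1) scale (SE 0.0864, adjusted p 8.89e-06). That rank depends on the scale: the median plain ratio over the 12 animals was 2.69 for Cd163 and 2.53 for C1qb. At 2 days Cd163 was 0.466, 0.443 and 0.514 in contralateral and 1.01, 1.30 and 1.39 in trained muscle, the lowest trained group of the 4 times. At 10 days the values were 1.37, 1.94 and 0.436 against 4.80, 2.82 and 1.21, at 20 days 0.936, 1.36 and 0.646 against 2.96, 2.69 and 3.28, and at 30 days 0.741, 1.32 and 1.48 against 1.77, 3.53 and 2.60. Trained and contralateral ranges overlapped at 10 days and were closest to touching at 30 days among the other times. Its log2 differences were 0.59, 0.76, 1.02 and 0.72 (SE 0.173, adjusted p 0.0256, 0.00711, 0.00142 and 0.0159). Cd163 was the member whose calls depended most on single animals: they were lost at 2 days without replicate 2 (0.56, adjusted p 0.154) or 3 (0.56, adjusted p 0.120), at 10 days without replicate 1 (0.50, adjusted p 0.0941) and at 30 days without replicate 1 (0.75, adjusted p 0.0568) or 2 (0.60, adjusted p 0.128). Against all 12 contralateral muscles, in which Cd163 was lower at 2 days than later, the 2-day difference was 0.22 (adjusted p 0.499), and on the values as deposited the 30-day call was lost (0.60, adjusted p 0.0904).

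Mrc1, the mannose receptor that clears glycoproteins and collagen fragments, was 0.435, 0.548 and 0.529 in contralateral and 1.95, 4.59 and 2.86 in trained muscle at 2 days. At 10 days it was 1.55, 2.22 and 0.371 against 5.31, 3.07 and 2.17, at 20 days 1.29, 1.04 and 1.26 against 2.29, 2.24 and 3.74, and at 30 days 0.605, 0.958 and 1.29 against 2.43, 4.09 and 3.41. The groups were apart at all times but 10 days, when the trained muscle of animal 3 was just below the contralateral muscle of animal 2. The log2 differences were 1.41, 0.95, 0.75 and 1.14 (SE 0.194, adjusted p 2.27e-04, 0.00377, 0.0171 and 0.00219). The call at 20 days was lost without replicate 2 (0.80, adjusted p 0.0661) or 3 (0.60, adjusted p 0.121) of that time and on the values as deposited (0.71, adjusted p 0.0555).

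Lyz2, the lysozyme, was the most abundant of the 10 genes and on the log2(value + 1) scale had the largest difference at 2 days, while with a pseudocount of 0.1 that of Cd68 was larger (3.13 against 2.70). Its contralateral values at 2 days were 8.81, 10.4 and 11.2, and its trained values 38.5, 102 and 74.0. At 10 days it was 17.1, 16.3 and 13.5 against 46.8, 44.7 and 24, at 20 days 12.8, 15.2 and 13 against 32.4, 36.6 and 38.8, and at 30 days 11, 16.2 and 18.5 against 39.7, 48.2 and 41.9. No trained muscle overlapped the contralateral muscles at any time, and the ratio of the means was 7.06 at 2 days and 2.46, 2.64 and 2.83 later. The log2 differences were 2.60, 1.20, 1.34 and 1.47 (SE 0.195, adjusted p 2.22e-06, 8.68e-04, 5.24e-04 and 3.74e-04).

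Cd14, which passes lipopolysaccharide to Toll-like receptors, was 0.470, 0.588 and 0.587 in contralateral and 1.92, 6.43 and 3.07 in trained muscle at 2 days. At 10 days the values were 1.45, 0.947 and 1.41 against 4.11, 3.80 and 2.23, at 20 days 0.875, 0.868 and 1.10 against 3.19, 2.73 and 2.76, and at 30 days 0.710, 0.738 and 0.909 against 2.42, 2.68 and 2.33. The highest contralateral muscle, at 1.45, was below the lowest trained muscle, at 1.92. Its log2 differences were 1.52, 0.93, 1.00 and 0.96 (SE 0.203, adjusted p 1.80e-04, 0.00588, 0.00446 and 0.00845). The call at 10 days was lost without replicate 2 of that time (0.74, adjusted p 0.0647), and that at 30 days without its replicate 2 (0.90, adjusted p 0.0665) or in the gene-level table (0.64, adjusted p 0.0585).

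Itgam, the CD11b chain of complement receptor 3, was close to the lower end of the table and did not meet the minimum level. At 2 days it was 0.0659, 0.0361 and 0.0321 in contralateral and 0.534, 0.785 and 0.600 in trained muscle, and at 10 days 0.245, 0.299 and 0.190 against 1.18, 0.800 and 0.483. At 20 days it was 0.248, 0.127 and 0.144 against 0.336, 0.544 and 0.531, and at 30 days 0.164, 0.152 and 0.213 against 0.289, 0.285 and 0.229. The trained muscles were above the contralateral ones at each time, by the least at 30 days, where the gap between the groups was 0.0164. In a fit of all 15273 genes without the minimum, the log2 differences were 0.65, 0.53, 0.32 and 0.11, and those at 2 and 10 days passed (adjusted p 0.00212, 0.00677, 0.0750 and 0.623). In that fit 9.83%, 9.61%, 7.19% and 5.06% of all genes rose at the 4 times, and 18.8% in their mean, where the Itgam difference was 0.40 (adjusted p 0.000143). With a pseudocount of 0.1 as well, chosen after the values were seen, the differences were 2.35, 1.36, 1.07 and 0.41, and that at 20 days passed too (adjusted p 0.0269). Of the 14 member transcripts, 1 of Itgam overlapped another gene of the table, Itgax, on the same strand, and reads of these related integrins may have been shared.

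**Figure D2:**
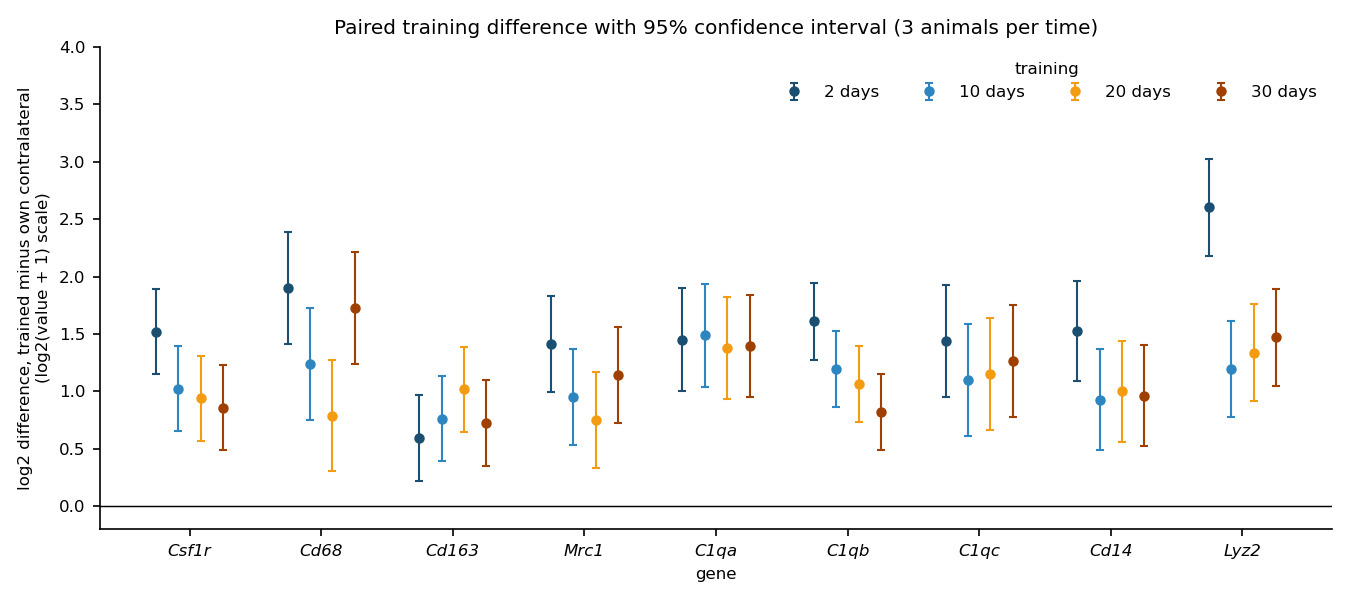
Log2 difference between trained and own contralateral muscle, on the log2(value + 1) scale, at each time for the 9 tested genes, with 95% confidence intervals from the limma fit and 3 animals per time. All intervals lie above 0, and on this scale Lyz2 at 2 days, at 2.60, lies above every other point.

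Whether the training difference itself changed with time was tested in the same fit. Over the 4 times together none of the 9 tested members passed, while 1.14% of all genes did. The 3 tested members with an unadjusted p under 0.05 were Lyz2 (p 0.000695, adjusted p 0.0549), Cd68 (p 0.0161, adjusted p 0.191) and C1qb (p 0.0209, adjusted p 0.213). That unadjusted cut was met by 1852 of all 11196 genes. Against 2 days, the Lyz2 difference was smaller by 1.41 at 10 days (SE 0.276, adjusted p 0.0730), a comparison in which 0.0179% of all genes were called smaller. It was smaller at 20 days (-1.27, 95% interval -1.86 to -0.67, adjusted p 0.0378, 0.857% of all genes called smaller) and at 30 days (-1.13, interval -1.73 to -0.54, adjusted p 0.0474, 1.46% of all genes). Both calls were near the threshold. That at 20 days was lost when any of 6 animals was left out, replicates 2 and 3 of 2 days, the 3 animals of 20 days and replicate 2 of 30 days, with values of -1.56 to -0.98 and adjusted p between 0.00828 and 0.159. That at 30 days was lost in 10 of 12 such fits, all but those without replicate 1 of 2 days or replicate 3 of 10 days, with values of -1.43 to -0.85 and adjusted p between 0.00899 and 0.200. In all of these fits the Lyz2 difference was smaller at 20 and 30 days than at 2 days.

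For the other 8 tested members, no later time was called different from 2 days, while 0.0625%, 1.73% and 2.8% of all genes were called in either direction at 10, 20 and 30 days. The nearest to the threshold were C1qb at 30 days (-0.79, adjusted p 0.0696) and Cd68 at 20 days (-1.11, adjusted p 0.0891), and Csf1r at 30 days was -0.66 (adjusted p 0.152). The interval of the C1qa change from 2 to 30 days was -0.69 to 0.58 around -0.05, and that of Cd163 was -0.40 to 0.66 around 0.13. Cd163 at 20 days was 0.42 above 2 days, with an interval of -0.10 to 0.95. These intervals of C1qa and Cd163 hold changes of either sign. At 20 days the intervals of C1qb (-1.02 to -0.07), Cd68 (-1.80 to -0.42), Csf1r (-1.10 to -0.06) and Mrc1 (-1.25 to -0.06) were negative throughout. At 30 days those of C1qb (-1.26 to -0.32) and Csf1r (-1.18 to -0.14) were too, and all other intervals of these members held either sign. The intervals are not adjusted for the number of genes. The absence of a call does not show that the differences stayed the same.

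The level in the contralateral muscle is the base of each difference, and it was lower at 2 days than later for several members. For Cd14 the contralateral mean was 0.548 ± 0.0682 at 2 days and 1.27 ± 0.280, 0.948 ± 0.132 and 0.786 ± 0.108 after 10, 20 and 30. For Lyz2 it was 10.1 ± 1.21 at 2 days and between 13.6 and 15.6 later. Across the 4 contralateral groups no member passed the test, in which 0.0625% of all genes were called. The tested members with an unadjusted p under 0.05 were Cd14 (p 0.00355, adjusted p 0.318), Lyz2 (p 0.0223, adjusted p 0.403) and Csf1r (p 0.0452, adjusted p 0.456). That unadjusted cut was met by 1197 of all 11196 genes.

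Resident-type and inflammatory markers were set against each other within each animal, as the difference of their log2 ratios of trained over contralateral muscle. At 2 days Lyz2 exceeded the mean of the C1q chains by 0.97 to 1.20 in the 3 animals (mean 1.10). At 10 days that difference was -0.52 to 0.20, at 20 days 0.10 to 0.21 and at 30 days 0.16 to 0.49. These values lay below the range of 2 days on the log2(value + 1) scale. By the plain ratio at 20 days, C1qa, C1qb and C1qc were at 2.75, 2.35 and 2.12 in animal 1 (Lyz2 2.54). They were at 2.13, 2.31 and 2.99 in animal 2 (Lyz2 2.41) and at 4.94, 2.69 and 2.45 in animal 3 (Lyz2 3.00). The lead of Lyz2 at 20 days thus did not hold for every chain. Against Cd163, Lyz2 was ahead on the log2(value + 1) scale by 1.56 to 2.50 at 2 days and by 0.11 to 1.09 at the later times. By the plain ratio Cd163 was ahead at 10 days in animals 1 (3.50 against 2.74) and 3 (2.78 against 1.78). It was also ahead at 20 days in animals 1 (3.16 against 2.54) and 3 (5.08 against 3.00), and Lyz2 was ahead in the other animals. These values are descriptions of 3 animals per time, and no test was run on them.

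Cd14 was set against the resident-type markers in the same way. Itgam, the remaining inflammatory marker, was too low for this scale, with log2 ratios of 0.53, 0.78 and 0.63 at 2 days and 0.15, 0.16 and 0.02 at 30 days. Cd14 exceeded Cd163 by 0.54 to 1.55 at 2 days, and by -0.23 to 0.93 at 10 days, -0.54 to 0.36 at 20 days and 0.12 to 0.33 at 30 days. Cd14 minus Mrc1 was -0.05 to 0.37 at 2 days, -0.79 to 0.96 at 10 days and -0.23 to 0.64 at 20 days, ranges that include 0, and -0.29 to -0.09 at 30 days, when Mrc1 was ahead in all 3 animals. On the log2(value + 1) scale, the member with the highest ratio was Lyz2 in all 3 animals at 2 days, C1qa in all 3 at 10 days, Lyz2, C1qc and C1qa in 1 animal each at 20 days, and Cd68 in all 3 at 30 days. That order depends on the scale: by the plain ratio at 2 days, Cd68 (4.62, 34.8 and 8.22) and Itgam (8.10, 21.7 and 18.7) were above Lyz2 (4.37, 9.80 and 6.62) in all 3 animals, and Lyz2 was above each C1q chain and Cd163 in all 3. By the plain ratio at 10 days, Itgam (4.82), Cd14 (4.01) and Cd68 (6.33) were highest in animals 1, 2 and 3, where C1qa was at 3.41, 3.15 and 3.24. At 20 days Cd14 (3.65), Itgam (4.28) and Cd163 (5.08) were highest in animals 1, 2 and 3. The share of Lyz2 in the summed level of the 10 genes was 46.7% ± 0.416 in contralateral and 58.9% ± 1.71 in trained muscle at 2 days. It was 44.2% ± 9.81 against 40.6% ± 1.99 at 10 days, 42.9% ± 2.02 against 43.1% ± 0.534 at 20 days and 46.4% ± 2.66 against 47.9% ± 1.46 at 30 days, so the groups were apart at 2 days.

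**Figure D3:**
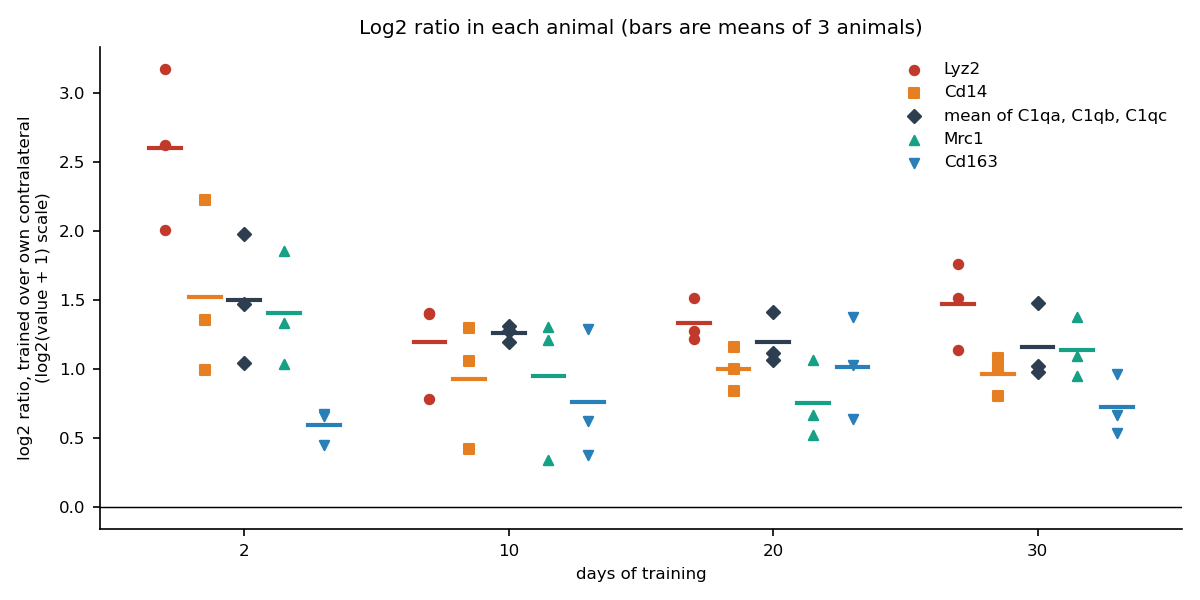
Log2 ratio of trained over own contralateral muscle, on the log2(value + 1) scale, in each of the 12 animals by days of training, for the mean of the C1q chains, the resident-type markers Cd163 and Mrc1 and the inflammatory markers Cd14 and Lyz2, with bars at the mean of 3 animals. At 2 days the Lyz2 points, 2.01, 3.18 and 2.62, lie on this scale above those of the other genes of the same animal, and at 10 days the ranges of the genes overlap.

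Other markers of the same kinds were counted in lists drawn up for this tissue, which hold the members too. A gene that reached the minimum level only because it was high in trained muscle had to differ, so counts and medians are given for the genes that reached it on the contralateral muscles alone. Of 20 inflammatory genes, 18 were in the table and 8 were tested, 5 of them on the contralateral muscles alone, of which 4 rose in the mean of the 4 times and none fell (median log2 1.65), beside 21.2% of all genes higher and 22.2% lower. The largest differences were those of Gpnmb, a glycoprotein of phagocytes that digest lipid-rich debris (1.41 ± 1.08 against 20.0 ± 5.92, log2 3.17), Ccl2, the main chemokine that draws monocytes (log2 2.39, tested through its trained level), and Lgals3, galectin-3 (4.98 ± 1.03 against 21.1 ± 4.68, log2 1.88). All of these rose at each of the 4 times. The classical inflammatory cytokines were too low to test: Il1b averaged 0.269 in contralateral and 0.438 in trained muscle, and Tnf did not exceed 0.173 in any library. The 4 genes that rose were thus the members Lyz2 and Cd14, with Gpnmb and Lgals3, and Plac8 was not called. The median of this list rests on these genes and not on the classical cytokines.

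Of 12 resident-type genes, 9 were in the table and 8 were tested, 7 of them on the contralateral muscles alone, of which 5 rose and 1 fell (median log2 0.67). Folr2, a folate receptor of resident macrophages, rose from 1.07 to 3.52 in the mean, by 1.35, 0.74, 0.96 and 1.28 at the 4 times. Its call was lost at 10 days without replicate 1 (0.68, adjusted p 0.154) or 2 (0.62, adjusted p 0.174) of that time and at 20 days without replicate 1 (0.95, adjusted p 0.0594) or 3 (0.91, adjusted p 0.0590). The gene that fell, Maf, is a transcription factor of macrophages that other cells of muscle also express, and it was more abundant than the receptors, at 17 ± 4.06 in contralateral and 8.74 ± 2.63 in trained muscle (log2 -0.89). It fell by 0.50, 0.98, 0.91 and 1.18 at the 4 times and passed at each, where 9.8%, 8%, 7.42% and 5.09% of all genes were lower. The 2-day call was lost without replicate 2 (-0.32, adjusted p 0.298) or 3 (-0.56, adjusted p 0.0805) of that time, on the values as deposited (-0.37, adjusted p 0.224) and in the gene-level table (-0.31, adjusted p 0.383).

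Of 22 genes shared by myeloid cells, all were in the table and 18 were tested, 7 of them on the contralateral muscles alone. All 7 rose in the mean of the 4 times (median log2 1.12), and the other 11 were tested only through their trained levels. Beside Cd68 the largest differences were those of Aif1, an actin-bundling protein of macrophages (log2 1.36), Tyrobp, the DAP12 adaptor of activating receptors (1.30), and Fcer1g, the Fc receptor gamma chain (1.12). Spi1, whose product is PU.1, rose by 0.64 in the mean of the 4 times and passed at 2 days alone (1.07). It was chosen for the motif counted in the promoters, and was one of the 11 tested through the trained level.

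Complement genes outside C1q moved in both directions. Of 26 listed, 22 were in the table and 16 were tested, 15 of them on the contralateral muscles alone, of which 10 rose and 3 fell in the mean of the 4 times (median log2 0.48). C1r, the protease that C1q activates, rose in the mean of the 4 times (9.31 ± 2.71 against 18.6 ± 4.20, log2 0.94), and its call at 30 days was lost in 9 of 12 fits without an animal (0.51 to 0.89, adjusted p up to 0.229), those without replicate 1 or 2 of 30 days, replicate 3 of 2 days or any animal of 10 or 20 days. C2, a protease of the next step, rose at every time (log2 0.96). C5ar1, the C5a receptor of myeloid cells, rose by 0.95 in the mean and was tested through its trained level, with highest contralateral value 0.879. C4a and C4b also rose in the mean of the 4 times (0.77 and 0.62), but they are near-identical copies whose reads could be split between them. At the single times C4a was not called, and C4b passed at 30 days alone (1.00, adjusted p 0.00373). Cfd, factor D of the alternative pathway, rose by 0.87 in the mean of the 4 times. The 3 that fell were Masp1, a protease of the lectin pathway (-0.76), and Cd55 (-0.52) and Cd59 (-0.23), which protect cells from complement, and they were named after their values were seen. C3, the central component, was below the minimum level, at means of 0.0655 and 0.154.

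Of 16 ligands and partners of these receptors, 13 were in the table and 10 were tested, 9 of them on the contralateral muscles alone, of which 7 rose and none fell in the mean of the 4 times (median log2 0.43). Csf1, the ligand of Csf1r, rose from 1.71 ± 0.343 to 5.13 ± 1.59, by 1.46, 1.43, 1.07 and 0.61 at the 4 times, all past the threshold. The call at 30 days was lost without replicate 1 (0.39, adjusted p 0.188), 2 (0.72, adjusted p 0.0572) or 3 (0.72, adjusted p 0.0507) of that time and on the values as deposited (0.49, adjusted p 0.150). Axl, a receptor for the uptake of dying cells (0.78), Tlr2, a Toll-like receptor that works with Cd14 (0.73, tested through its trained level), and Cd93, a membrane protein once proposed as a C1q receptor (0.61), followed. Cd93 stood at 0.03 at 2 days (adjusted p 0.948) and passed at 10 and 20 days (0.91 and 0.85). At 30 days it was not called (0.65, adjusted p 0.0691). Il34, the other ligand of Csf1r, was at 0.15 and was not called.

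**Figure D4:**
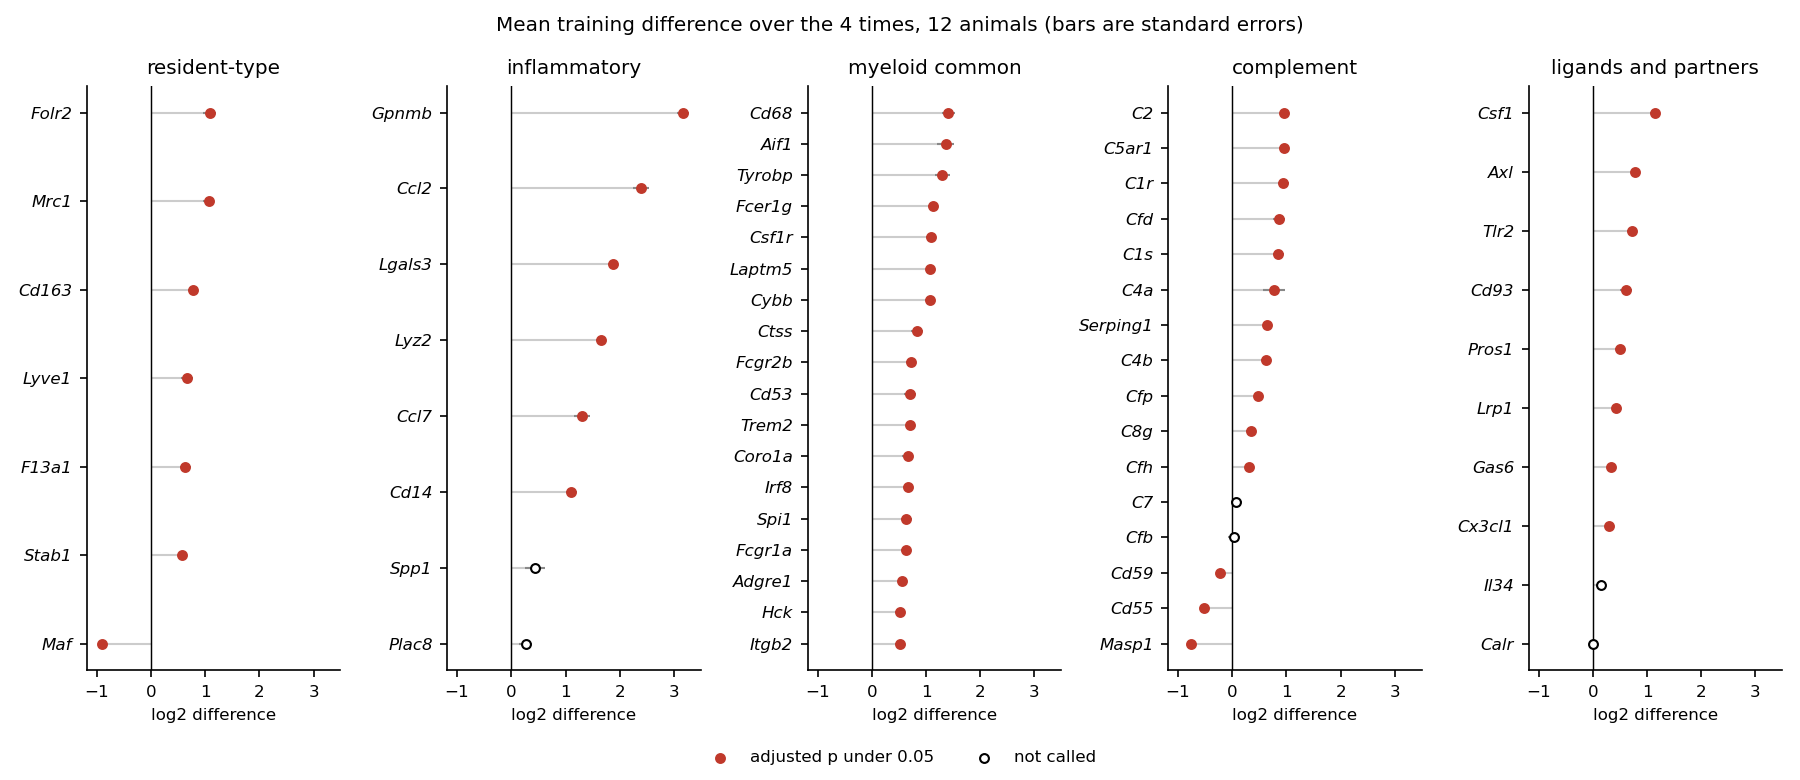
Log2 difference between trained and contralateral muscle in the mean of the 4 times, on the log2(value + 1) scale, for tested genes of the macrophage, complement and partner lists, 1 panel per list, with standard errors as bars and filled points for genes past the threshold. The 18 tested myeloid genes, 11 of them tested through their trained levels, and the 8 tested inflammatory genes lie above 0, and the resident-type and complement lists hold genes on both sides.

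Markers of other cell types were measured beside these genes. The 5 fibroblast genes, which mark the connective tissue in which macrophages lie, all rose in the mean of the 4 times (median log2 1.49), and their summed level was 74.6 to 253 in contralateral and 301 to 982 in trained muscle. Of 6 mast cell genes 2, Cma1 and Cpa3, were tested on the contralateral muscles alone and rose, and 3 were tested through their trained levels. Their sum went from 1.71 to 4.23 in contralateral muscle to 2.28 to 19.8 in trained muscle, and at 2 days none of the 5 tested passed. Mast cells express some of the myeloid genes, and the part of these cells in the result was not tested. Of 9 neutrophil genes, which share Itgam with macrophages, 4 were in the table and none was tested. Their sum was 0 to 2.85 in contralateral and 0 to 1.63 in trained muscle, and S100a9, the highest of them, was above its own control in 2 of 12 trained muscles. The 5 T and NK cell genes in the table summed to 0.155 to 1.21 against 0.392 to 1.95, the B cell gene Cd79a did not exceed 0.261, and the red cell genes showed no call among 2 tested. Of 4 endothelial genes 2 rose, the dendritic cell gene Zbtb46 rose by 0.44, and of 6 muscle-fibre genes 4 fell and 1 rose.

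Finally, genes whose pattern over the animals was most like that of C1q were listed. The measure was the root mean square difference between a gene's 12 log2 ratios and the mean of those of C1qa, C1qb and C1qc, over 5861 genes with a mean level of at least 5, members left out. The nearest were Cd74, the invariant chain of MHC class II (0.226), Col5a3, a fibrillar collagen chain (0.227), Anxa5, which binds exposed phosphatidylserine (0.238), Vcl, vinculin (0.242), S100a6 (0.259) and Fstl1 (0.286). For scale, the distances of the C1q chains from their own mean were 0.267 to 0.279, and those of the other members were 0.314 for Csf1r, 0.358 for Cd14, 0.374 for Mrc1, 0.439 for Cd68, 0.607 for Lyz2, 0.642 for Cd163 and 0.911 for the low Itgam. Apart from the C1q chains and Lyz2, the members had mean levels below 5, from 3.66 for Csf1r to 0.355 for Itgam. Genes that low were not searched, and the log2(value + 1) scale understates their change. The distances of these members are thus not comparable with those of the nearest genes. The 12 ratios of a gene come from 12 animals that all genes share, so the distances are given with no test.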

How the data were processed

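The authors trimmed the reads, aligned them with STAR in Partek Flow to Rnor_6.0 and quantified Ensembl transcripts, and deposited a table of 20027 transcripts whose values are TPM-type: scaled for transcript length and to the same total in every library, so they do not hold the number of reads behind a value. The submitters' processing notes name DESeq2, but these values are not its counts, so the test for log-scale values was used. Another deposited table holds a signal per gene for 4635 genes, 5 of them members, and equals the transcript values times a factor per gene and per sample. The last holds the authors' own comparisons (p-values, false discovery rates and ratios) and was not used.

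Transcripts were summed per gene and divided by median-of-ratios factors from 16230 transcripts above 0 in all 24 libraries. limma 3.58.1 (R 4.3.3) was fitted to log2(value + 1) of the 11196 genes that reached 1 in 3 or more libraries, with the animal as a fixed block. The titles pair the 2 muscles of each animal. Deviations of same-animal libraries from their group means had a median correlation of 0.174 over 12 pairs (0.0277 to 0.343). The median for other animals of the same day (-0.100) is no separate check, because deviations cancel out within each group of 3. Contrasts were each time, the mean of the 4 times, each later time minus 2 days, and F tests over the times and over the contralateral groups. Tables and figures were made with Python 3.11.15, pandas 2.3.3, numpy 2.4.6, scipy 1.17.1 and matplotlib 3.10.9. On simulated data for the 10-day comparison (10 draws, 11196 genes, 200 changed), 87.3% of genes changed by a log2 of 1 and 99.4% of those changed by 2 were recovered, with 5.69% false calls.

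The members and gene lists were chosen with earlier results of these data known. Beside the members, the text names from each list up to 4 called genes with the largest difference in the mean of the 4 times, or, of lists with none called, the highest gene. Muscle-fibre and red cell genes are given by count only, and 1 further listed gene is not reported here. Others are said to be chosen after their values were seen. Alternatives were no replicate block, the values as deposited, a pseudocount of 0.1, no minimum, a threshold of 0.01, the highest transcript per gene, an intensity trend, the gene-level table and each animal left out. The series design text states 4 animals per time, and 3 were analysed here.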

Additional observations from a re-analysis of the deposited data

Results flagged for a closer look

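Training differences that changed between times by a test of the change itself are given here, and none of them is explained. The difference between trained and contralateral muscle for Lyz2, the lysozyme, was smaller at 20 days than at 2 days by -1.27 on the log2 scale (adjusted p 0.0378) and smaller at 30 days by -1.13 (adjusted p 0.0474), and leaving out an animal ended these calls in 6 and in 10 of 12 fits. For Cma1, the mast cell chymase, the difference was larger at 30 days than at 2 days by 1.55 (adjusted p 0.0294). That call was lost without replicate 2 or 3 of 2 days or replicate 1 or 2 of 30 days (1.32 to 1.86 over all 12 fits). For Lum, which encodes the collagen-binding proteoglycan lumican of fibroblasts, it was smaller at 30 days by -1.35 (adjusted p 0.0202). That call was lost without the same 4 animals, with values of -1.04, -1.34, -1.23 and -1.31. For Cdh5, VE-cadherin of endothelial cells, it was larger at 20 days by 0.95 (adjusted p 0.0268). That call was lost without replicate 2 or 3 of 2 days or any animal of 20 days (0.89 to 1.00 in these fits) and in the gene-level table (0.39, adjusted p 0.240). Groups of 3 animals are too small for a test of outlying samples.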

How the results depend on the processing

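Every member kept its direction in all 1015 alternative values of the training difference, and 33 of them were no longer past the threshold. With the replicate block left out and 3 muscles compared with 3 of the same day, 8, 8, 7 and 6 of 9 members passed at 2, 10, 20 and 30 days, and against all 12 contralateral muscles 8, 9, 9 and 9. Of all 11196 genes, 2196, 2007, 1589 and 1121 passed in the first of these settings and 3235, 3240, 2393 and 2304 in the second. The number of members called was 9 in the mean of the 4 times with any animal left out, and 8 to 9, 8 to 9, 7 to 9 and 6 to 9 at the 4 times. Over all 11196 genes these fits called 4359 to 4759 in the mean, and 968 to 2467, 1226 to 2288, 967 to 1989 and 581 to 1416 at the 4 times. In the gene-level table, which holds 5 members, 5, 5, 5 and 2 were called at the 4 times and 5 in the mean. Of its 4635 genes, 690, 563, 487 and 461 were called at the 4 times and 1453 in the mean. That table moved the median of all genes by -0.12 at 20 days and -0.20 at 30 days, and the values as deposited moved it by 0.11 at 2 days. A pseudocount of 0.1 made the differences of low members larger by more than 1.5 times, such as Cd68 at 2 days (3.13), Cd163 at 2 days (1.20), Mrc1 at 2 days (2.34) and Cd14 at 2 days (2.43). No member depended on the time over the 4 times, but 1 did with an intensity trend, 1 at an unadjusted p under 0.01, and 0 to 2 with an animal left out, 2 without replicate 1 of 2 days. Of all 11196 genes, 193 did with the trend, 716 at that unadjusted p and 343 without replicate 1 of 2 days. Between the contralateral groups 1 member passed at an unadjusted p under 0.01, as did 313 of all 11196 genes. The Lyz2 changes from 2 days also missed the threshold at 20 and 30 days without the block (3 against 3, adjusted p 0.0858 and 0.115), as deposited (0.0567 and 0.0513), with a pseudocount of 0.1 (0.0760 and 0.0836) and without the minimum (0.0614 and 0.0699). The cause was not tested. Counts over all genes moved with single animals, from 2417 at 2 days to 968 without replicate 2, and from 1377 at 30 days to 581 without replicate 2.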

Other observations

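The mast cell genes were few and low, and Cma1 alone of the 5 tested passed the test of a change from 2 to 30 days. Cma1, the chymase, differed between trained and contralateral muscle by 0.19 at 2 days on the log2 scale and rose by 1.43, 1.38 and 1.74 at 10, 20 and 30 days. Cpa3, the mast cell carboxypeptidase, stood at 0.39 and 0.62 at 2 and 10 days and rose by 1.22 (0.70 without replicate 3 of 20 days) and 1.61 at 20 and 30 days, and the tryptase Tpsab1, tested through its trained level, stood at 0.76 and 0.85 at 10 and 20 days, calls that were lost without any animal of 10 days (adjusted p 0.0743 to 0.205) or without replicate 1 or 3 of 20 days (0.192 and 0.0663). The summed level of the 6 genes was 2.28 to 3.74 in trained muscles at 2 days and 12.8 to 17.4 at 30 days, beside 1.97 to 2.36 and 3.20 to 4.03 in contralateral muscles.

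Spp1, which encodes osteopontin, a secreted protein of macrophages and other cells, was named after its values were seen and was tested through its trained level. It rose at 2 days by 2.04 and stood at -0.78, 0.40 and 0.07 at the later times, none of them called. At 10 days its contralateral level varied widely (2.29 ± 2.63, 0.392 to 5.29), and its trained level was 0.616 ± 0.539. The trained means at 20 and 30 days were 0.575 and 0.697. Among the fibroblast genes, Col3a1 rose by 2.56, 2.31, 1.94 and 1.60 and Col1a1 by 2.49, 2.10, 2.17 and 1.24 at the 4 times. The 30-day call of Col1a1 was lost without replicate 1 (1.25, adjusted p 0.0877), 2 (1.45, adjusted p 0.0569) or 3 (1.04, adjusted p 0.154) of that time.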
